A study of Caenorhabditis elegans with 48 samples.

Results

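The late hours of a larval time course, 20 to 23 h of growth, were compared between lin-28(0) and wild-type (WT) Caenorhabditis elegans by small RNA sequencing. The 8 libraries, 4 hourly libraries per genotype, were chosen by sampling hour and genotype from the labels out of 48 libraries in all, and 240 of the 437 miRNA strands in the count table had a mean of at least 10 counts in them and were tested. The WT strain HW1993 carried the luciferase and GFP reporter xeSi312, driven by the broadly active eft-3 promoter. The lin-28(0) strain HW2706 carried the same reporter and lin-28(xe192), a deletion of lin-28 made with CRISPR, so that lin-28(0) stands for 1 allele in 1 strain. Whole larvae of both strains, untreated, were grown from synchronised L1 animals in liquid culture with OP50 bacteria at 25°C and 1000 animals per mL. Each genotype was 1 culture sampled every hour, so the 4 hours of a group are not independent cultures, and every p-value measures the spread between hours of a culture.

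LIN-28 is an RNA-binding protein of the heterochronic pathway, the set of genes that orders stage-specific cell fates in the larva. It blocks the maturation of let-7, a miRNA that drives the passage from larva to adult, and lin-28 is itself a target of lin-4 and let-7. Each miRNA precursor yields a pair of strands. The guide strand is loaded into Argonaute and is mostly long-lived, and the passenger strand, written with an asterisk as in let-7*, is mostly degraded soon after processing. Here the member of the pair with the higher mean level over the 48 libraries is called the guide, and the tested strands were 139 guides, 84 passengers and 17 strands listed alone.

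The libraries held 2704037 (WT, 23 h) to 10325203 (WT, 20 h) miRNA counts, and the 10 most abundant strands took 66.6% to 70.0% of them. Levels are given in CPM, the counts of a strand per 1000000 miRNA counts of its library, and so are shares of the miRNA pool that do not measure an amount per worm. In bulk larvae, fewer cells of a type and less RNA per cell cannot be told apart. The first principal component, with 48.3% of the variance, separated the genotypes. The second, with 21.9%, set the WT library of 23 h apart. Its score was -7.57 against -1.83 to 5.00 in the other WT hours. Without that library 14 of the 22 strands past 0.05 below did not pass, with adjusted p-values from 0.0501 to 0.0955. None turned in sign and 2 others passed, let-7-3p and miR-41-5p. Such losses were not particular to that library. Without the WT library of 22 h or the lin-28(0) library of 21 or 22 h, 16, 16 and 17 strands were lost. Leaving out any other library lost 4 to 11. The deletion has no check in these data because mRNA was not measured. Per the labels, 3 sequencing reactions were made. The paper names a TruSeq kit for the first and a CleanTag kit after it, and the last reaction was a resequencing done to detect let-7*. Since the labels do not say which reactions entered each library, their part in the results was not tested.

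The first question was which miRNAs differed between the genotypes at these hours. At an adjusted p under 0.01 in the quasi-likelihood test of edgeR, 2 strands were higher in lin-28(0) (0.833% of the 240) and 2 were lower (0.833%). The higher strands were the let-7 guide, let-7-5p, and miR-36-3p, a guide of the miR-35 family that is needed in the embryo. The lower strands were a passenger strand of the mir-229 precursor, miR-229-3p, and the passenger strand of miR-71, a miRNA known for its role in adult lifespan. At an adjusted p under 0.05, 11 strands were higher (4.58%) and 11 lower (4.58%). Scaled by total counts instead of TMM, which shifted the median difference of all strands by 0.16 on the log2 scale, that split was 15 higher and 6 lower. The median log2 difference of the 240 strands was -0.08. In CPM, the 4 lin-28(0) libraries all lay above the 4 WT libraries for 29 strands (12.1%) and all below them for 11 strands (4.58%), and with levels scaled by TMM these counts were 18 and 19.

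**Figure D1:**
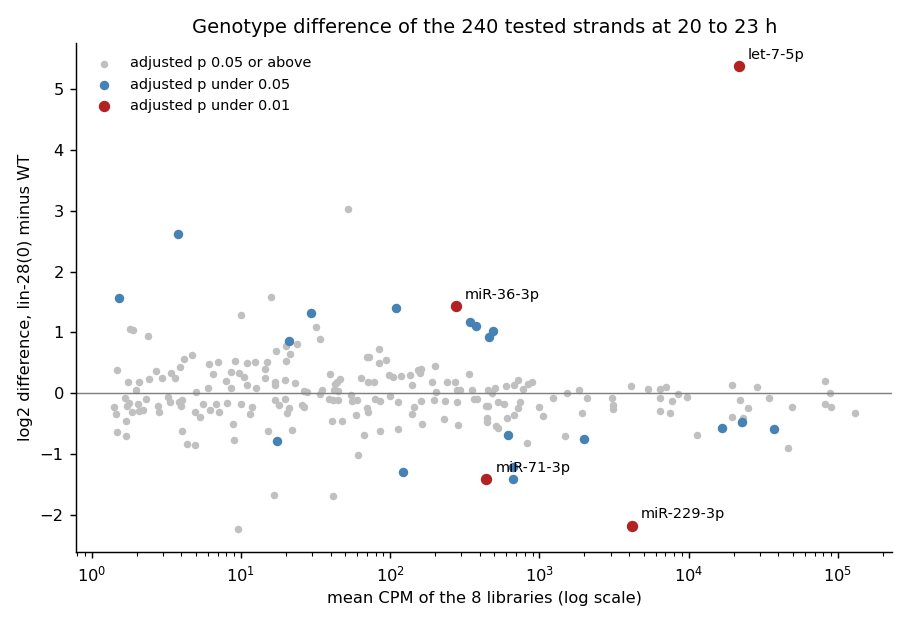
Log2 difference of lin-28(0) minus WT (y axis) against the mean CPM of the 8 libraries on a log scale (x axis), with 1 point for each of the 240 tested strands. The 4 red points have an adjusted p under 0.01 and the blue points one between 0.01 and 0.05, and let-7-5p stands alone at a log2 difference of 5.38.

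The let-7 guide stood at 606, 571, 560 and 1892 CPM in WT at 20, 21, 22 and 23 h. In lin-28(0) it stood at 41487, 47208, 41580 and 39546 CPM at the same hours. Every lin-28(0) library was far above every WT library, and the WT library of 23 h was above the 3 others of its group. The log2 difference was 5.38 ± 0.47 (SE, n = 4 hours per genotype), or 41.6-fold, with an adjusted p of 9.27e-05 in edgeR. Without the WT library of 23 h the log2 difference was 6.05, with an adjusted p of 1.90e-09. The let-7 guide took 3.95% to 4.72% of all miRNA counts in lin-28(0) and 0.0560% to 0.189% in WT.

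The let-7 passenger strand followed another course within these hours. In WT it had 15, 3, 10 and 109 counts, or 1.45, 0.434, 2.10 and 40.3 CPM, and the last of these has a Poisson interval at 95% of 33.1 to 48.6 CPM that covers counting error only. In lin-28(0) it stood at 173, 134, 41.1 and 22.3 CPM. It was thus higher in lin-28(0) at 20, 21 and 22 h and lower at 23 h, and the groups overlapped. The log2 difference of 3.03 ± 1.27 (SE, n = 4 per genotype) did not pass the edgeR test (adjusted p = 0.165), and this rested on 1 library. Without the WT library of 23 h the log2 difference was 6.02 ± 0.91 (SE), with an adjusted p of 0.00540. With hour 23 left out of both genotypes it was 6.34, with an adjusted p of 0.00132. Relative to its guide, let-7* was 0.240%, 0.0760%, 0.374% and 2.13% in WT and 0.417%, 0.285%, 0.0988% and 0.0564% in lin-28(0), and the change of the log2 ratio did not pass the limma test either (adjusted p = 0.175).

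The relatives of let-7 share its seed. miR-48, miR-84 and miR-241 act together with let-7 in the heterochronic pathway, at an earlier larval transition. Of the 7 strands of the let-7 family with the let-7 seed, 1 was higher (let-7-5p) and 1 lower (miR-795-5p) at an adjusted p under 0.05. The shares of all 240 strands were 4.58% higher and 4.58% lower. The median log2 difference of the 7 was -0.34 against -0.08 over all strands. miR-795-5p stood at 2092, 2040, 2659 and 2776 CPM in WT and at 1413, 1414, 1560 and 1948 CPM in lin-28(0), without overlap. Its log2 difference was -0.76 ± 0.17 (SE, n = 4 per genotype), with an adjusted p of 0.0294. It did not pass at 0.05 without the WT library of 22 h (adjusted p = 0.0920) or 23 h (0.0664) or the lin-28(0) library of 20 h (0.0963), 21 h (0.111) or 22 h (0.114), and the log2 difference was -0.39 (adjusted p = 0.277) against WT at 18 to 21 h and -0.15 (adjusted p = 0.794) against WT at 17 to 20 h.

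miR-48-5p held 19783 to 22162 CPM in WT and 12241, 14635, 22133 and 22984 CPM in lin-28(0) at 20 to 23 h. The first pair of lin-28(0) hours lay below all WT hours and the last pair within or above their range, and the mean difference of -0.39 ± 0.20 on the log2 scale did not pass the test (adjusted p = 0.256, n = 4 per genotype). miR-84-5p held 6579 to 9408 CPM in WT and 6368 to 7638 CPM in lin-28(0) (adjusted p = 0.113). miR-241-5p, which carries the let-7 seed, held 136 to 174 CPM in WT and 114 to 153 CPM in lin-28(0) (adjusted p = 0.210), and was the less abundant strand of its precursor in these counts. Its partner miR-241-3p held 1328 to 2439 CPM in WT and 1072 to 1341 CPM in lin-28(0), with a log2 difference of -0.71 (adjusted p = 0.0616). Neither miR-793 (log2 difference -0.41) nor miR-794-5p (-0.09) passed the test.

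Of the 6 listed 3p strands of the family, 5 were tested and none passed at 0.05, but let-7-3p did so without the WT library of 23 h. They were let-7-3p and miR-241-3p, above, with miR-48-3p (log2 difference -0.14), miR-84-3p (0.06) and miR-795-3p (-0.69). miR-794-3p had 19 counts in the 8 libraries and was below the minimum.

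lin-4, which opens the heterochronic sequence by repressing lin-14 and lin-28, was measured on both strands. The guide lin-4-5p held 219 to 461 CPM in WT and 329 to 456 CPM in lin-28(0), with a log2 difference of 0.05 ± 0.22 (SE). The passenger lin-4-3p had 14, 4, 1 and 5 counts in WT and 57, 74, 62 and 10 counts in lin-28(0), or 1.36, 0.579, 0.210 and 1.85 CPM against 9.08, 8.90, 7.14 and 1.20 CPM. The lin-28(0) libraries of 20 to 22 h lay above all WT libraries, and that of 23 h lay within their range. The log2 difference was 2.61 ± 0.69 (SE, n = 4 per genotype) with an adjusted p of 0.0443. At 16 to 19 h the means were in the opposite order, 10.4 CPM in WT against 2.39 in lin-28(0), in a difference that did not pass the test (adjusted p = 0.110). Against WT at 17 to 20 h the log2 difference of the late lin-28(0) libraries was -0.55 (adjusted p = 0.794). The relative of lin-4, miR-237, did not pass the test on its guide (log2 difference -0.06 ± 0.13, SE, adjusted p = 0.778), and its passenger ran at 29.9, 17.4, 34.6 and 126 CPM in WT and 146, 94.2, 60.7 and 48.3 CPM in lin-28(0).

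**Figure D2:**
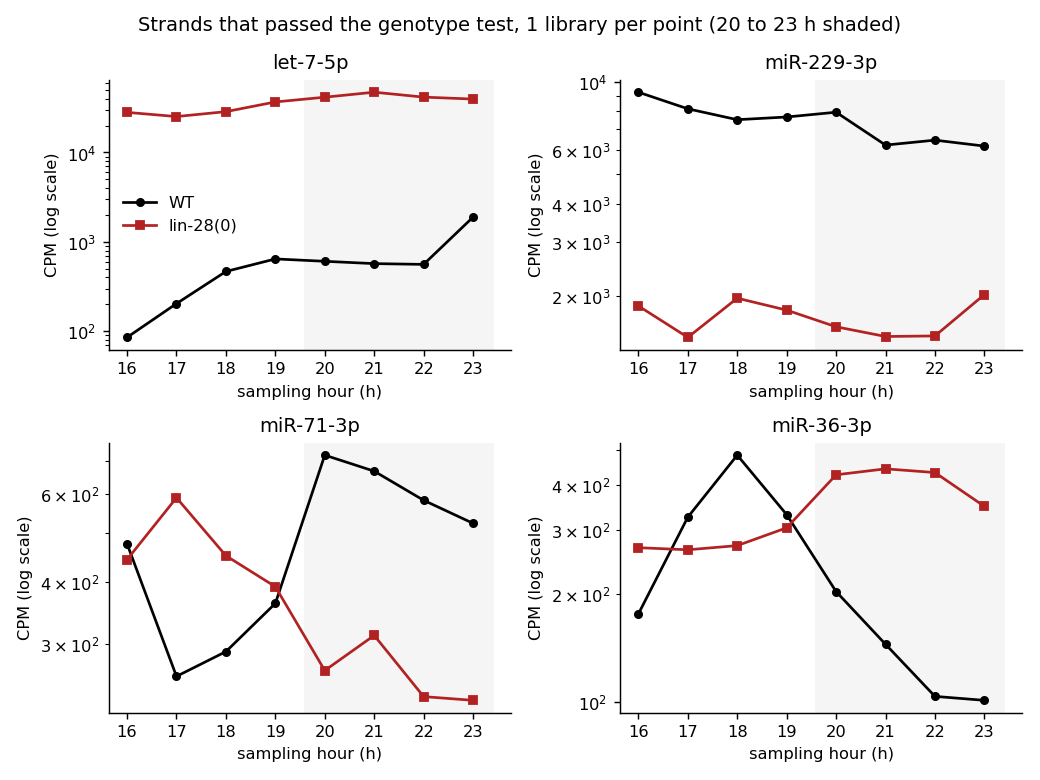
CPM on a log scale (y axis) at each sampling hour from 16 to 23 h (x axis) for the 4 strands with an adjusted p under 0.01, in WT (black circles) and lin-28(0) (red squares), 1 library per point, with 20 to 23 h shaded. let-7-5p and miR-229-3p are separated at all 8 hours, and the lines of miR-71-3p and miR-36-3p cross before 20 h.

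The lowest adjusted p belonged to miR-229-3p, a strand of the mir-229 precursor, whose gene lies next to mir-64, mir-65 and mir-66 on chromosome III in the RefSeq annotation of WBcel235. It stood at 7944, 6208, 6443 and 6162 CPM in WT and at 1590, 1478, 1485 and 2024 CPM in lin-28(0). The groups were far apart, and no hour of either genotype came near the other group. The log2 difference was -2.18 ± 0.15 (SE, n = 4 per genotype), which is 4.53-fold lower in lin-28(0), with an adjusted p of 1.87e-05. miR-229-5p, which is cut from the same hairpin, held 5394 to 6659 CPM in WT and 6481 to 7519 CPM in lin-28(0) (log2 difference 0.06 ± 0.10, SE, adjusted p = 0.717).

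The strands of mir-229 therefore stood in another ratio. In WT the 3p strand had 138%, 93.2%, 119% and 103% of the level of the 5p strand, and in lin-28(0) 23.1%, 21.4%, 19.7% and 31.2%. mir-229 was the 1 precursor of 84 (1.19%) whose log2 ratio of passenger to guide passed the limma test at 0.01, with a change of -2.25 ± 0.22 (SE, n = 4 per genotype, adjusted p = 1.63e-04), or 2.25 where the guide is named from the WT libraries of these hours, in which the 3p strand was the more abundant. The difference was as large at 16 to 19 h, when miR-229-3p averaged 8139 CPM in WT against 1775 in lin-28(0), and its change between the windows was 0.12 on the log2 scale (adjusted p = 0.870). In the same cluster miR-64-5p had a log2 difference of 0.10, miR-65-5p one of 0.13 and miR-66-5p one of -0.08, and none of the 4 tested 5p strands of the cluster passed at 0.05.

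The ratio changed for 3 further precursors at an adjusted p under 0.05 in limma. The passenger-to-guide ratio was lower in lin-28(0) for mir-36 (log2 change -1.34) and mir-788 (-1.21). In both the guide passed at 0.05 as higher in lin-28(0) and the passenger did not pass. The guide of mir-788 by these counts was miR-788-3p, and the paper modelled miR-788-5p as the guide. The ratio was higher for mir-235 (1.54), whose passenger was at most 0.0525% of the guide. In WT it was 0.00428% to 0.0173%, so this ratio rests on few passenger counts, with 1 CPM added to each strand. Without the lin-28(0) library of 23 h, 4 precursors passed at 0.01.

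miR-71-3p, the passenger strand of miR-71, stood at 719, 667, 583 and 524 CPM in WT and at 265, 312, 235 and 231 CPM in lin-28(0). Every lin-28(0) library was below every WT library. The log2 difference was -1.41 ± 0.15 (SE, n = 4 per genotype), 2.66-fold lower, with an adjusted p of 3.91e-04. At 16 to 19 h the means were 346 CPM in WT against 469 in lin-28(0), and the log2 difference of 0.31 did not pass the test. miR-71-3p was the 1 strand of 236 (0.424%) whose difference changed between the windows at an adjusted p under 0.01, by -1.75 on the log2 scale (adjusted p = 0.00141). That call was lost without the WT library of 22 h (adjusted p = 0.0193) or the lin-28(0) library of 22 h (adjusted p = 0.0262), and without the WT library of 20 h 4 strands passed. The guide miR-71-5p ran from 29973 to 81645 CPM in WT and from 27678 to 42585 CPM in lin-28(0), and its log2 difference of -0.91 ± 0.32 (SE) had an adjusted p of 0.113.

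The miR-35 family is abundant in the embryo and declines at hatching. At an adjusted p under 0.05, 4 of its 7 tested strands were higher in lin-28(0) at these hours, against 4.58% of all 240 strands. All 4 come from the genes mir-35 to mir-41, which are direct neighbours on chromosome II in WBcel235. Their differences need not be independent of each other. miR-36-3p also passed at 0.01. The median log2 difference of the 7 strands was 1.09, with a range from 0.73 to 1.43, against -0.08 over all strands. miR-36-3p stood at 203, 145, 104 and 101 CPM in WT and at 427, 444, 434 and 349 CPM in lin-28(0), without overlap. The log2 difference was 1.43 ± 0.22 (SE, n = 4 per genotype), 2.69-fold, with an adjusted p of 0.00500. miR-39-3p stood at 284, 216, 156 and 125 CPM in WT and at 534, 530, 494 and 399 CPM in lin-28(0) (log2 difference 1.18, adjusted p = 0.0188). In both strands the lowest lin-28(0) library was that of 23 h, and it was still above all 4 WT libraries.

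miR-37-3p held 174 to 347 CPM in WT and 423 to 581 CPM in lin-28(0) (log2 difference 1.10), and miR-35-3p held 209 to 477 CPM against 531 to 688 CPM (0.92), both without overlap. The 3 other tested members did not pass and their groups overlapped. Their log2 differences were 1.09 for miR-38-3p, 0.73 for miR-40-3p and 0.81 for miR-42-3p. miR-41-3p had 1 count in the 8 libraries and was not tested. Summed over the tested members, the family held 745 to 1465 CPM in WT and 1823 to 2462 CPM in lin-28(0). All lin-28(0) libraries lay above all WT libraries for 4 of the 7 strands, against 12.1% of the 240.

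**Figure D3:**
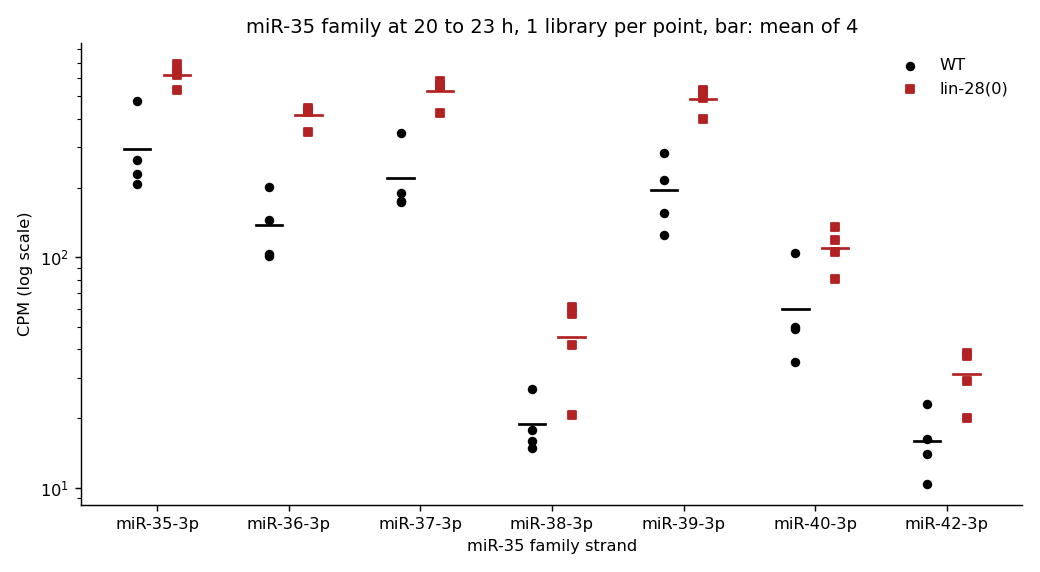
CPM on a log scale (y axis) of the 7 tested strands of the miR-35 family (x axis) at 20 to 23 h, 1 point per library in WT (black circles) and lin-28(0) (red squares), with a bar at the mean of 4. The groups are apart for miR-35-3p, miR-36-3p, miR-37-3p and miR-39-3p and overlap for the 3 others.

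The paper reported that levels of every member of the family change rhythmically in larvae. Over 16 to 23 h miR-36-3p was highest at 18 h in WT (485 CPM) and at 21 h in lin-28(0) (444 CPM). miR-36-3p and miR-39-3p had not stood higher on average in the preceding window. At 16 to 19 h miR-36-3p averaged 330 CPM in WT against 278 in lin-28(0), and miR-39-3p 494 and 478 CPM. The change of the difference between the windows was 1.75 for miR-36-3p, 1.45 for miR-37-3p and 1.30 for miR-39-3p on the log2 scale, each at an adjusted p under 0.05 and above 0.01. Together with lin-4-3p and miR-59-3p these were the 5 strands whose difference moved upward at 0.05, and miR-71-3p and miR-45-5p moved downward. The call of miR-36-3p at 0.01 was lost without the WT library of 22 h (adjusted p = 0.0236) or 23 h (0.0104) and without the lin-28(0) library of 21 h (0.0149) or 22 h (0.0220), with log2 differences from 1.32 to 1.42. Members of the family at 0.05 numbered 1 without the WT library of 22 h or the lin-28(0) library of 21 or 22 h, 2 without the WT library of 23 h and 3 without the lin-28(0) library of 20 h.

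A list of strands was drawn up here around EBAX-1, a factor of target-directed miRNA degradation. It holds 7 strands of the miR-35 family, without miR-42-3p, and 5 others, among them both strands of miR-788. Of 12 strands on that list 11 were tested and 5 were higher at an adjusted p under 0.05, against 4.58% of all 240 strands. All of the 5 except miR-788-3p were miR-35 family members. miR-788-3p stood at 380, 293, 234 and 285 CPM in WT and at 735, 748, 719 and 506 CPM in lin-28(0), without overlap. Its log2 difference was 1.03 ± 0.18 (SE, n = 4 per genotype, adjusted p = 0.0107). At 16 to 19 h it had averaged 573 CPM in WT against 259 in lin-28(0), the opposite order, in a difference that did not pass the test (adjusted p = 0.187). The paper modelled miR-788-5p as the guide, and reported that loss of EBAX-1 stabilised miR-788 but not its passenger strand. By the counts here miR-788-3p was the guide. The paper's guide, miR-788-5p, held 109 to 225 CPM in WT and 105 to 155 CPM in lin-28(0) (log2 difference -0.22, adjusted p = 0.625).

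miR-235-3p, a relative of mammalian miR-92 that keeps blast cells quiescent in arrested L1 larvae, crossed over within the window. It held 15150, 13188, 16672 and 8646 CPM in WT and 3499, 5681, 10522 and 17654 CPM in lin-28(0). The lin-28(0) libraries rose at every hour, from below all WT libraries to above them. The slope was 0.78 on the log2 scale per hour in lin-28(0) (adjusted p = 0.00745) and -0.15 in WT (adjusted p = 0.525), and the slope difference of 0.93 ± 0.16 (SE) had an adjusted p of 0.0151.

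The direction of change within the 4 hours was therefore compared across all strands, at equal hours only. The paper reported that a part of the miRNA strands oscillates during larval development. A shift in timing between the genotypes was not tested for slopes. The slope differed between the genotypes for 4 strands (1.67% of 240) at an adjusted p under 0.01 in edgeR. 3 of them, miR-42-5p, miR-43-5p and miR-44-5p, come from neighbouring precursors on chromosome II in WBcel235. Their genes follow each other directly among the miRNA genes of the annotation. miR-42-5p went in WT from 45.0 to 70.9, 236 and 372 CPM and in lin-28(0) from 218 to 150, 109 and 99.8 CPM. miR-43-5p rose in WT from 13.8 to 23.2, 46.9 and 78.4 CPM and fell in lin-28(0) from 68.0 to 49.8, 31.8 and 18.8 CPM. miR-44-5p went in WT from 193 to 197, 557 and 1013 CPM and in lin-28(0) from 641 to 427, 287 and 250 CPM. All 3 strands were higher in lin-28(0) at 20 and 21 h and lower at 22 and 23 h, so their mean differences were small (-0.51, -0.11 and -0.47 on the log2 scale) and none passed the genotype test.

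The slope differences, lin-28(0) minus WT, were -1.52 ± 0.17 for miR-42-5p, -1.52 ± 0.12 for miR-43-5p and -1.36 ± 0.18 for miR-44-5p on the log2 scale per hour (SE, 4 hours per genotype), with adjusted p-values of 0.00143, 3.87e-04 and 0.00345. All 3 rises in WT passed the slope test at 0.01, and of the falls in lin-28(0) that of miR-43-5p did. In the preceding window miR-42-5p stood at 346, 345, 183 and 86.3 CPM in WT at 16, 17, 18 and 19 h, against 171, 211, 296 and 281 CPM in lin-28(0). The 3p strands of these precursors had slope differences of -0.21 (miR-42-3p), 0.12 (miR-43-3p) and -0.19 (miR-44-3p), and none passed the test. miR-44-3p, whose reads can be shared with miR-45-3p in this counting, held 19917 to 23890 CPM in the WT libraries and 15917 to 28864 CPM in those of lin-28(0).

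miR-77-5p was the 4th strand and ran the other way. It went from 718 to 504, 374 and 250 CPM in WT, where the slope did not pass at 0.01 (adjusted p = 0.0118), and rose in lin-28(0) from 272 to 392, 678 and 835 CPM. The slope difference was 1.02 ± 0.10 (SE) on the log2 scale per hour with an adjusted p of 0.00123. At an adjusted p under 0.05, let-7-3p (-2.98), miR-255-5p (-2.43) and miR-79-5p (-0.70) also had lower slopes in lin-28(0), and miR-255-5p had only 3 to 32 counts per library.

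**Figure D4:**
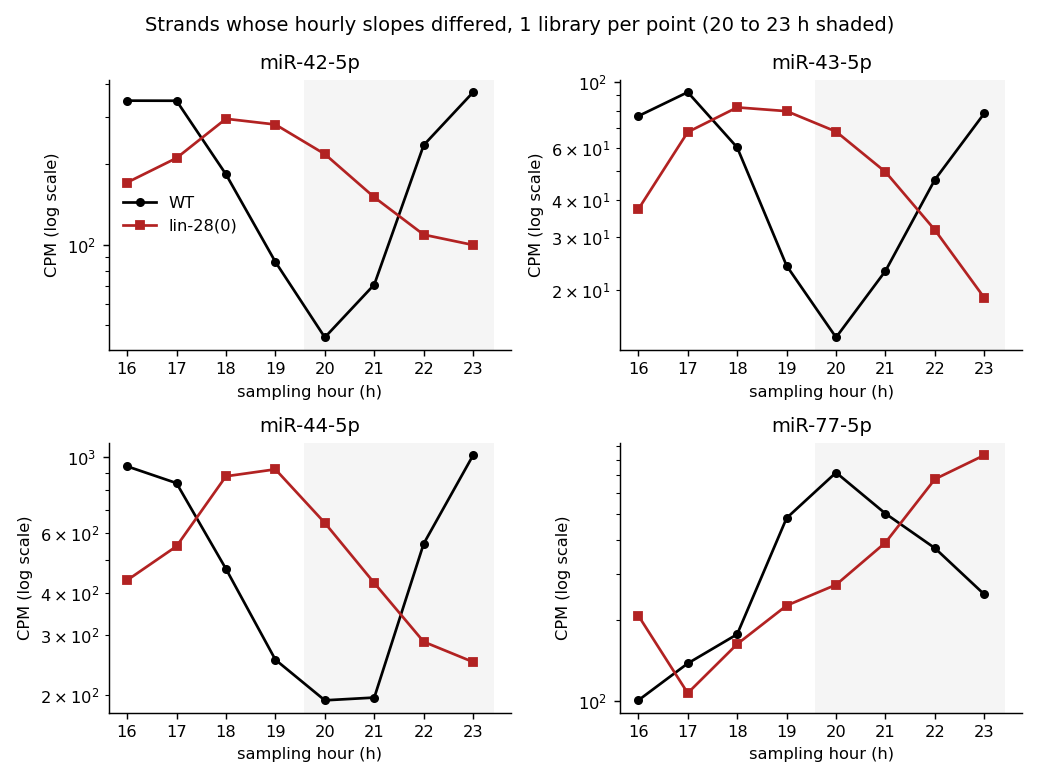
CPM on a log scale (y axis) at each sampling hour from 16 to 23 h (x axis) for miR-42-5p, miR-43-5p, miR-44-5p and miR-77-5p in WT (black circles) and lin-28(0) (red squares), 1 library per point, with 20 to 23 h shaded. Within the shaded hours miR-42-5p, miR-43-5p and miR-44-5p go up in WT and down in lin-28(0), and miR-77-5p does the reverse.

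Within each genotype, 4 strands changed through the hours at an adjusted p under 0.01 in WT (1.67%), all upward, and 4 in lin-28(0) (1.67%), 3 upward and 1 downward. miR-240-5p rose in both. It ran at 20.4, 30.4, 67.0 and 128 CPM in WT and at 4.14, 15.0, 24.6 and 41.4 CPM in lin-28(0). Its slopes of 0.94 and 1.00 on the log2 scale per hour differed by 0.06 ± 0.18 (SE, adjusted p = 0.937). At each hour the lin-28(0) level was below that of WT, while its levels of 21 to 23 h spanned 15.0 to 41.4 CPM and overlapped those of WT at 20 and 21 h. The number of strands with a slope difference at 0.01 depended on single libraries and was 19 without the WT library of 20 h, 2 without that of 23 h, 1 without the lin-28(0) library of 20 or 21 h and 0 without that of 23 h.

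Other guides among the strands past 0.05 were chosen for mention after their values were seen. miR-90-3p held 40422 to 46978 CPM in WT and 30234 to 35504 CPM in lin-28(0) (log2 difference -0.58, adjusted p = 0.0170). miR-61-3p, which acts downstream of LIN-12 Notch in vulval precursors, held 16893 to 20640 CPM against 12540 to 16461 CPM (-0.58, adjusted p = 0.0226). miR-73-3p held 23052 to 27422 CPM against 18221 to 22340 CPM (-0.48, adjusted p = 0.0443). These 3 were lower in lin-28(0) without overlap, at differences of less than 1 on the log2 scale. miR-59-3p (1.40) and miR-357-3p (1.32) were higher at low levels, with at most 229 and 65.1 CPM in any library. The strands miR-230-5p (-1.41), miR-45-5p (-1.22) and miR-228-3p (-0.69), passengers by the counts here, were lower. miR-230-5p was 78.6% to 123% of its partner in WT, and the paper modelled it as the guide. Under total-count scaling the differences of miR-61-3p (adjusted p = 0.0617), miR-73-3p (0.102) and miR-228-3p (0.0665) did not pass at 0.05. Of the 22 strands 15 were guides, 6 passengers and 1 a strand listed alone.

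The remaining families showed no call at 0.01. At 0.05 none passed among 6 tested members of the miR-51 family, 4 of the miR-58 (bantam) family, 4 of the miR-2 family, 3 of the miR-238 and miR-239 family and 2 of the miR-251 and miR-252 family. In the miR-44 family 1 of 4 passed (miR-61-3p) and in the miR-72 family 1 of 3 (miR-73-3p), both lower, against 4.58% of all 240 strands. The 4 tested bantam members together held 300594 to 314322 CPM in WT and 299788 to 322994 CPM in lin-28(0). Of 5 strands listed as rising late in larval life 3 were tested, and they went both ways. miR-357-3p was higher at 0.05, but not with hour 23 left out of both genotypes (adjusted p = 0.132). miR-359 (log2 difference 0.63, adjusted p = 0.135) and miR-240-5p (-1.70, adjusted p = 0.172) did not pass. The 2 that were not tested, miR-358-3p and miR-786-3p, had 12 and 53 counts in the 8 libraries.

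miRNAs that mark tissues were compared because whole larvae hold all of them. None of the 6 markers passed at 0.05, where 4.58% of all 240 strands were higher and 4.58% lower. At those shares 6 strands are too few to show that tissue content was unchanged. Without the WT library of 21 h, miR-124-3p (log2 difference 0.84, adjusted p = 0.0356) and miR-228-5p (-0.59, adjusted p = 0.0298) passed. The muscle and pharynx miRNA miR-1-3p held 38215 to 69468 CPM in WT and 33881 to 59385 CPM in lin-28(0). The intestinal miR-60-3p stood at 130, 113, 25.3 and 23.3 CPM in WT and at 106, 96.8, 44.0 and 24.8 CPM in lin-28(0), and neither slope passed at 0.01. The neuronal miR-124-3p was higher in all 4 lin-28(0) libraries (21.4 to 32.1 CPM) than in WT (11.3 to 20.4 CPM), as were 12.1% of the 240 strands. Its log2 difference was 0.64, with an adjusted p of 0.0957. lsy-6-3p (0.14) and miR-791-3p (0.53), both neuronal, and miR-228-5p of glia and seam cells (-0.48) overlapped between the groups. Summed over the 6 markers, the libraries held 65900 to 86846 CPM in WT and 54428 to 77559 CPM in lin-28(0), and their part in the other differences was not tested.

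Equal hours need not be equal stages. Over 237 strands, leaving out let-7-5p, let-7-3p and miR-229-3p after their values were seen, the WT library most like lin-28(0) at 20, 21, 22 and 23 h was that of 18, 18, 19 and 22 h, with Pearson correlations across strands of 0.994, 0.994, 0.989 and 0.990 against 0.983 to 0.987 at the same hour. The libraries of a genotype share a culture, and strands are not independent replicates. Set against WT at 18 to 21 h, the late lin-28(0) libraries gave log2 differences of 6.14 for let-7-5p, -2.22 for miR-229-3p and 5.43 for let-7-3p (adjusted p = 0.00577), and these 3 strands passed at 0.01. let-7-3p also passed against WT at 17 to 20 h (5.13, adjusted p = 0.00320). miR-71-3p (-1.05, adjusted p = 0.118) and miR-36-3p (0.47, adjusted p = 0.512) did not. The median of the miR-35 family was 0.24 in that comparison and 0.10 against WT at 17 to 20 h, with no member past 0.05 in either. miR-788-3p stood at 0.18 and 0.16. Slopes were not compared at shifted hours.

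Of the 22 strands past 0.05 at equal hours, 4 passed at 0.05 against WT at 18 to 21 h and 5 against WT at 17 to 20 h. let-7-5p, miR-229-3p, miR-90-3p and miR-8196a-3p did so in both, and miR-357-3p in the second. miR-90-3p differed by -0.56 and -0.60 in these comparisons and by -0.58 at equal hours. miR-8196a-3p, at 9.40 to 25.6 CPM, differed by -1.05 and -1.01, and by -0.79 at equal hours. The number of strands past 0.05 at equal hours was 6, 10, 11, 6, 5 and 12 without the WT libraries of 22 and 23 h and the lin-28(0) libraries of 20, 21, 22 and 23 h in turn. Without the WT library of 20 h, 14 of the 22 still passed and 3 others did. Without that of 21 h, 18 still passed and 6 others did.

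**Figure D5:**
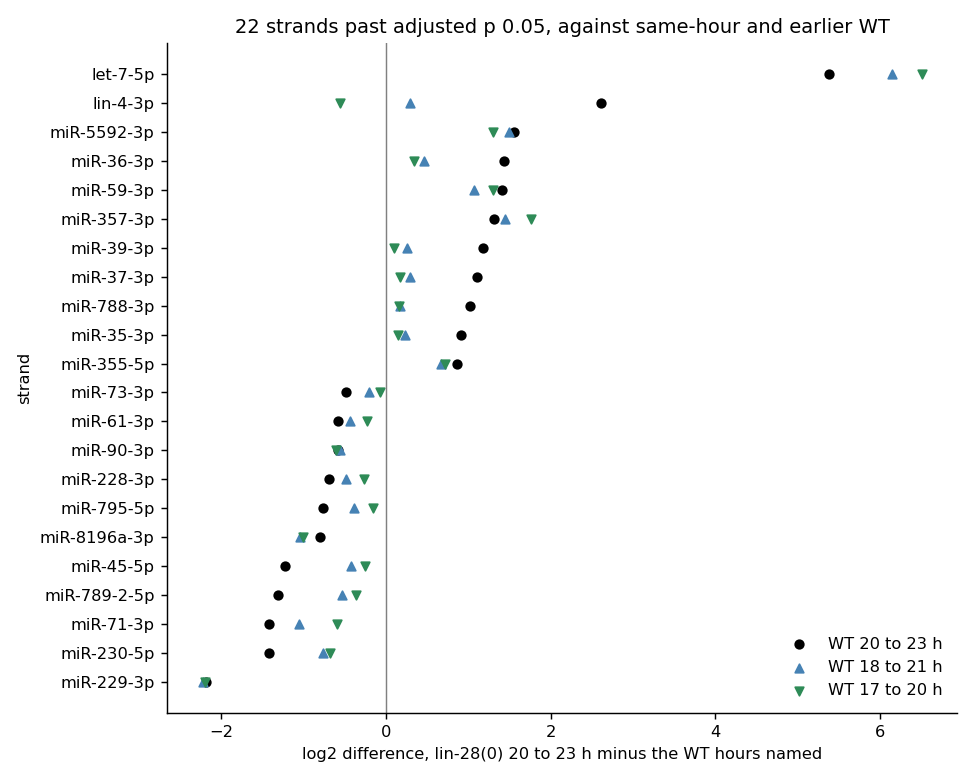
Log2 difference of lin-28(0) at 20 to 23 h (x axis) minus WT at 20 to 23 h (black circles), 18 to 21 h (blue triangles) and 17 to 20 h (green triangles) for the 22 strands past an adjusted p of 0.05 at equal hours (y axis). The 3 marks of miR-229-3p and of miR-90-3p lie together, and those of the miR-35 family move to between 0.10 and 0.47.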

How the data were processed

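The authors trimmed adapters, aligned reads to ce10 with Bowtie through QuasR and deposited raw counts of reads per mature miRNA strand. No source used here gives the version of Bowtie. A second deposited table holds log2 values of scaled counts and was used in 1 alternative. Genotype and hour came from the labels. Positions of ce10 were not used here, and gene neighbours are from RefSeq (WBcel235).

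Strands with a mean of at least 10 counts in the 8 libraries were tested with edgeR 4.0.16 (TMM, quasi-likelihood F test, R 4.3.3), with Benjamini-Hochberg adjustment over all tested strands (every adjusted p unless limma is named) and a threshold of 0.01, with 0.05 as a second. The change between windows was a genotype by window term in 16 libraries (236 strands), and slopes were linear in the hour. SE is the log2 difference over the root of F. Passenger-to-guide ratios were log2 CPM plus 1, tested with limma 3.58.1. DESeq2 1.42.0 was an alternative. A count of 1 was worth 0.0969 to 0.370 CPM, so levels near 1 CPM rest on few counts. Intervals cover counting error only, because reads amplified by PCR, which carry no molecular identifiers, do not count molecules. No 2 libraries were duplicates. The tests were also run on simulated independent libraries, which cannot show their error rates for serial hours of 1 culture.

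The strands, lists and tests were chosen with earlier results of these data known. Named are all let-7 and lin-4 family strands, up to 12 strands per direction past 0.01 with a mean of at least 10 CPM with their partners, up to 6 past each other test, and list members.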

Additional observations from a re-analysis of the deposited data

Results flagged for a closer look

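In 162 groups of 4 libraries (81 strands named or listed, in each genotype), 13 had a highest or lowest library whose gap to the next exceeded Dixon's critical value at 95%, and chance gives about 1 in 20 groups. In WT, let-7-5p (gap 0.965 of the range), let-7-3p (0.958) and miR-237-3p (0.841) were high at 23 h. miR-37-3p (0.904), miR-229-3p (0.843) and miR-788-5p (0.839) were high in WT at 20 h. miR-59-3p (0.897), miR-357-3p (0.850) and miR-58a-3p (0.900) were high in WT at 21 h, and miR-82-3p (0.833) was low there. In lin-28(0), miR-8196a-3p (0.899) and miR-788-3p (0.880) were low at 23 h and miR-788-5p (0.884) was low at 20 h.

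The genotypes differed in slope within the window, by an interaction term of edgeR, for miR-42-5p (-1.52 on the log2 scale per hour), miR-43-5p (-1.52), miR-44-5p (-1.36) and miR-77-5p (1.02). The genotype difference of miR-71-3p changed between the windows by -1.75. The cause of these patterns was not tested.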

How the results depend on the processing

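The number of strands past 0.01 at equal hours was 4 and ran from 3 to 6 under size factors of DESeq2, total counts, TMM without let-7-5p, other minimums, limma-trend, without hour 23 and with shifted hours. In a fit of all 48 libraries, which recomputed the TMM scaling as well as the spread, it was 21 (18 higher). The median log2 difference of the miR-51 family was 0.23 in that fit and -0.01 in the main fit. The number was 26 in the Wald test of DESeq2, 7 in limma on the deposited log2 values (5 higher), 9 with the hour as a linear covariate and 22 at a threshold of 0.05. Leaving out 1 library gave 3 to 8. let-7-5p and miR-229-3p passed under every alternative run. Leaving out 1 library gave 0 to 4 strands for the change between windows, 0 to 19 for the slope difference (an alternative chosen after seeing the data) and 1 to 4 precursors for the ratio, which was 2 with 5 CPM added. With size factors of DESeq2 the slope difference was called for 6 strands. The log2 difference of lin-4-3p turned to -0.55 against WT at 17 to 20 h. The ratio change of mir-229 turned to 2.25 with the guide named from WT at 20 to 23 h, which only swaps the strands in the ratio. The cause of the other changes was not tested.

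Libraries of the same hour share the time of growth, but the labels do not pair them. Their deviations from the group means correlated at 0.10, 0.10, 0.10 and -0.07 at 20, 21, 22 and 23 h. No WT library correlated best with its own hour. The WT libraries of 20, 21, 22 and 23 h correlated best with lin-28(0) at 21, 22, 23 and 20 h. With the hour as a replicate block 6 strands passed 0.01 at equal hours (3 higher), 1 strand in the change between windows and 1 precursor in the ratio. Depth limits strands near 1 CPM, such as lin-4-3p and miR-255-5p.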
